A study of Homo sapiens with 8 samples.

Results

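PTP4A1, PTP4A2 and PTP4A3 encode the PRL phosphatases, a family of small protein tyrosine phosphatases named after regenerating liver. The rows carrying these 3 gene symbols were taken from a table of 60676 human genes. PTP4A3 was chosen by its fold changes of gilteritinib over vehicle, since earlier results of these data had it lower with the drug in both kinds of library. Its drug values are therefore a description and carry no test. PTP4A1 and PTP4A2 entered by family name. The diet and tissue values of PTP4A3 had no part in the choice.

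PRL phosphatases carry a C-terminal prenyl anchor that holds them at membranes. They bind CNNM proteins, which are membrane proteins of magnesium transport, and this binding couples the phosphatases to the magnesium content of the cell. PTP4A3 is best known from metastatic colorectal cancer, and in acute myeloid leukaemia it has been described as raised in cells with an internal tandem duplication of the receptor kinase FLT3 (FLT3-ITD), whose signal runs through STAT5.

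The RNA came from mice engrafted with MOLM14, a human acute myeloid leukaemia line labelled FLT3-ITD with a rearranged MLL gene (MLLr). The mice received gilteritinib, an inhibitor of FLT3 and AXL, or vehicle for 1 week, on a ketogenic or a standard diet for 3 weeks. Within each tissue the 4 groups were therefore gilteritinib with ketogenic diet, gilteritinib with standard diet, vehicle with ketogenic diet and vehicle with standard diet, and each group had 1 library, 8 in all. Bone marrow libraries were made from cells sorted for human CD45. The other 4 were labelled as liver, from whole pieces with mouse and human cells. The labels give neither the host strain nor the number of animals behind a library, MOLM14 is 1 cell line, and the tissue label coincides with a batch code, so tissue and batch cannot be told apart.

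Library totals lay between 13605936 and 33611830 counts. Of 10 hepatocyte markers, 6 (ALB, TTR, APOA2, APOC3, FGA and FGG) had 0 counts in all 8 libraries. The 10 together stayed between 0.147 and 0.605 CPM (counts scaled to a common library total) in the libraries labelled liver. The hosts were mice and the engrafted cells MOLM14, so no human hepatocytes were expected there. These values show only that few reads of mouse hepatocytes were counted at these genes. Likewise 5 of 6 endothelial and 5 of 6 erythroid markers were at 0 in all 8, and the 6 lymphoid markers summed to 1.57 to 3.09 CPM. The 8 leukaemia cell markers, the myeloid proteins LYZ and AZU1 among them, summed to 5610 to 6680 CPM in gilteritinib marrow, against 3340 to 3450 CPM in vehicle marrow. In the libraries labelled liver they summed to 7720 to 8120 CPM with gilteritinib and 3200 to 3630 CPM with vehicle. LYZ had the largest count of the 8 markers in every library, and not all markers shared the rise. On ketogenic and standard diet, PTPRC had 93.2 and 138 CPM in gilteritinib marrow, against 130 and 159 CPM in vehicle marrow. FLT3 had 441 and 585 CPM, against 491 and 585 CPM. CD33, MPO, CSF1R and ITGAM rose in marrow as LYZ did. The marker sum moved with the drug, and its part in the drug values below was not tested. In bulk RNA, fewer cells of a type and less RNA per cell cannot be told apart.

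On GRCh38 (GENCODE 29), PTP4A2 (ENSG00000184007) spans bases 31906421 to 31944856 of chromosome 1 on the minus strand. PTP4A1 (ENSG00000112245) spans bases 63521746 to 63583377 of chromosome 6 on the plus strand. Over their coding sequences PTP4A2 and PTP4A3 had 68.3% identical bases, PTP4A1 and PTP4A3 69%, and PTP4A1 and PTP4A2 76.6%. The table also held 9 rows of PTP4A pseudogenes, all processed copies without introns, which could share reads with their parents.

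The stretch around the catalytic cysteine shows how far the copies differ where the family is most conserved. The 30 coding bases below start at the histidine before that cysteine, and capitals mark bases that differ from PTP4A2 (GENCODE 29 transcripts).
PTP4A2: cattgtgttgcaggattgggaagggcacct
PTP4A1: cattgCgttgcaggCCtTggGagAgcTccA
PTP4A2P1: cattgCgttgTGgAattgggaagggcacct
PTP4A2P2: cCttgtgttgcGggattgggaagggcacct

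PTP4A1 differed from PTP4A2 at 8 of these bases, and the processed pseudogenes PTP4A2P1 and PTP4A2P2 at 4 and 2. Over whole transcripts, 0 of 7451 windows of 100 bases in PTP4A2 and 0 of 3065 in PTP4A3 occurred unchanged in another gene, so no other annotated human gene holds such a stretch. Mouse transcripts were not compared. PTP4A2P1 collected 30 to 91 counts per library and PTP4A2P2 2 to 12, against 4776 to 14105 for PTP4A2. The 7 PTP4A1 pseudogenes held 0 to 2 counts per library each.

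The PTP4A1 row was almost empty. It held 4 counts with gilteritinib and ketogenic diet, 0 with gilteritinib and standard diet, 0 with vehicle and ketogenic diet and 3 with vehicle and standard diet in marrow. In the libraries labelled liver it held 2, 2, 0 and 0 counts in that order. A count of 0 allows up to 3 counts, or 0.181 to 0.22 CPM in these libraries. No group stood apart at this depth, and the row fell under the minimum for a test.

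These counts cannot be read as the level of PTP4A1. The annotation places a second protein-coding gene, AL135905.2 (ENSG00000285976, chromosome 6, bases 63572012 to 63583587), on the same strand over its 3′ part. Of the 5281 exon bases of PTP4A1, 4170 (79.0%) also lie in exons of AL135905.2, and 74.4% of its 100-base windows occur there unchanged. How the counting treated reads that fall in both genes is not given in the sources used here. AL135905.2 itself had 10 to 34 counts per library. The exons of PTP4A2 and PTP4A3 shared 0 bases with any other annotated gene.

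**Figure D1:**
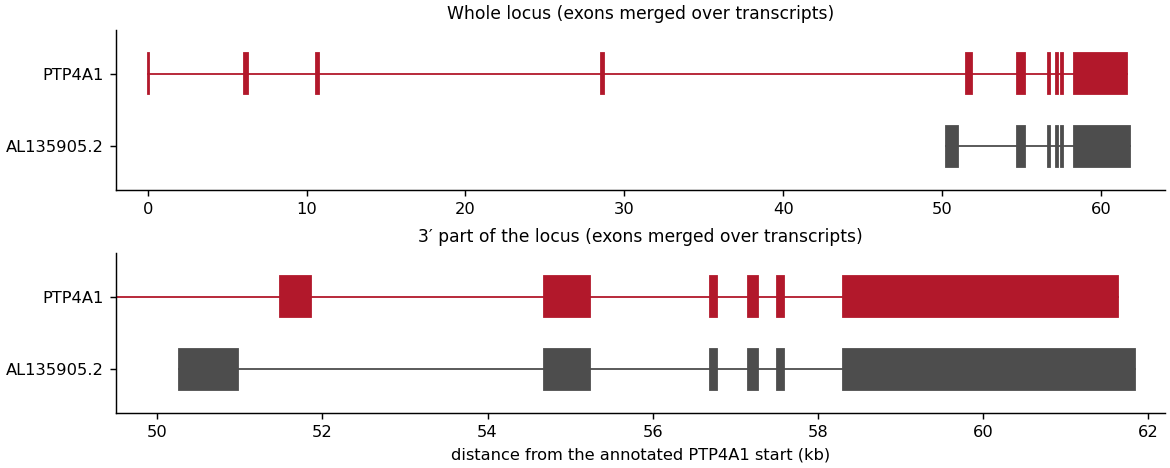
Exons of PTP4A1 (red) and AL135905.2 (grey), merged over transcripts, by distance from the annotated PTP4A1 start in kb; the lower panel enlarges the 3′ part. Of the PTP4A1 exon bases, 79.0% lie in exons of AL135905.2, including the long last exon.

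The promoters of PTP4A1 and PTP4A2 are shown because EGR1 and STAT5, transcription factors of FLT3 signalling, are described below. Each window holds 300 bases, most of them before the start and the last 50 after it (RefSeq, GRCh38.p14), and capitals mark a match to the EGR letters GCGNGGGCG, here on the minus strand.
PTP4A1 (chr6:63572230-63572529, plus strand): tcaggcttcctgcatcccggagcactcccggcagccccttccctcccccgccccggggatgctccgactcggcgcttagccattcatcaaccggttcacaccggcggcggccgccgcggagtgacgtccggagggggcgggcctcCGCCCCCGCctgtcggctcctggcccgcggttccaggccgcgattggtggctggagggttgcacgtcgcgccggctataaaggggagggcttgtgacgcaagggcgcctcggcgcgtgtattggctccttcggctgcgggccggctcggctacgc
PTP4A2 (chr1:31938319-31938618, minus strand): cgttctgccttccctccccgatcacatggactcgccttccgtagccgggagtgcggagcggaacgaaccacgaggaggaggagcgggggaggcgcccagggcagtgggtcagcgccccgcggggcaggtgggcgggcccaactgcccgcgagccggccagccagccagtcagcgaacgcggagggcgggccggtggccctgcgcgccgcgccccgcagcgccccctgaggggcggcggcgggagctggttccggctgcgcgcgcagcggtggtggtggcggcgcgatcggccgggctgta
Both strands were searched for GCGNGGGCG and for the STAT letters TTCNNNGAA, and the single match overlapped no other. The EGR letters occurred in 1 of 4 PTP4A1 windows and 0 of 2 PTP4A2 windows, and in 9.43% of 35116 promoter windows in the table. The PTP4A1 window shown lies inside the gene's GENCODE span, within the first exon of AL135905.2 (50.266 to 50.973 kb from the PTP4A1 start). Its match therefore cannot be assigned to PTP4A1 alone. The window at the annotated PTP4A1 start (chr6:63521496-63521795) had 0 matches. The STAT letters occurred in 0 windows of either gene and in 7.66% of all windows. A match describes the letters of the window and no more. The promoter of PTP4A3 was not analysed here.

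PTP4A3 (ENSG00000184489) lies on the plus strand of chromosome 8, from base 141391993 to 141432454 (GRCh38, GENCODE 29). It had 809 counts with gilteritinib and ketogenic diet, 894 with gilteritinib and standard diet, 2275 with vehicle and ketogenic diet and 5576 with vehicle and standard diet in marrow. After scaling by library total and TMM factor (TMM corrects for differences in RNA composition), these were 42.2, 58.5, 134 and 155 CPM. In the libraries labelled liver the same groups had 1542, 2339, 2067 and 2059 counts, or 58.1, 87.8, 124 and 150 TMM-scaled CPM. All 4 gilteritinib libraries lay under all 4 vehicle libraries. Counted by library totals without TMM, 9.16% of the 14749 genes tested over the 8 libraries showed this pattern. With library totals the median gene moved by −0.0963 with the drug. The gap between the groups ran between 87.8 and 124 TMM-scaled CPM, and within each tissue and drug the ketogenic library was the lower one.

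Ordered by level, the 8 values of PTP4A3 ran from vehicle with standard diet in marrow (155 CPM) and in labelled liver (150 CPM), through vehicle with ketogenic diet in marrow (134) and labelled liver (124), to gilteritinib with standard diet in labelled liver (87.8) and marrow (58.5) and gilteritinib with ketogenic diet in labelled liver (58.1) and marrow (42.2). The step from vehicle to gilteritinib follows from the choice of the gene and is not read here. Other neighbours in this order differed beyond counting error except in 2 places. The standard-diet vehicle libraries of the 2 tissues had a ratio of 1.03 (95% interval 0.983 to 1.09). Gilteritinib marrow on standard diet and gilteritinib labelled liver on ketogenic diet had a ratio of 1.01 (0.926 to 1.09). These intervals cover counting error only, since reads without molecular identifiers are not independent molecules and no group has a second library.

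**Figure D2:**
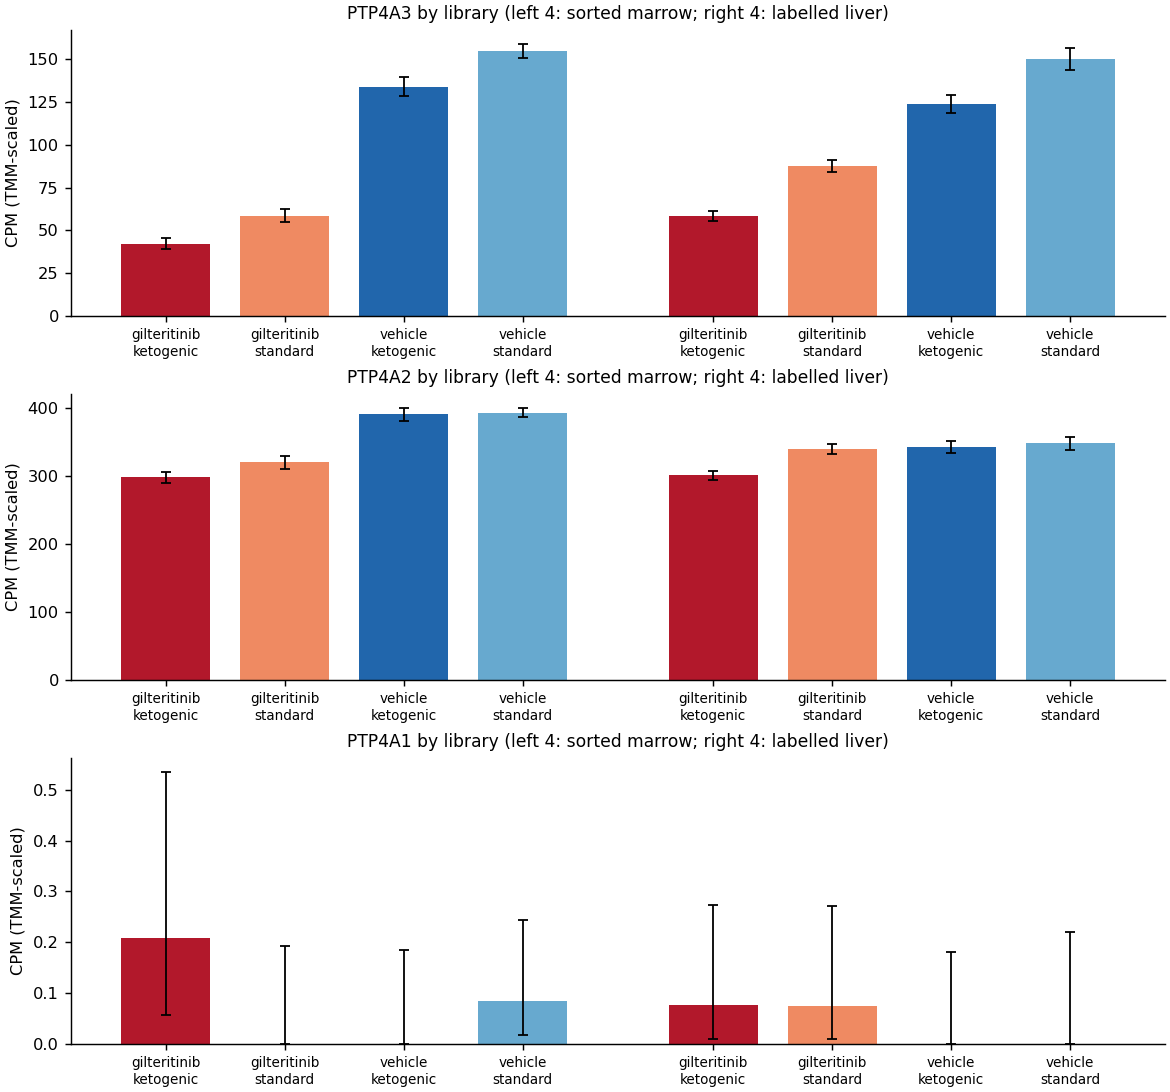
TMM-scaled CPM of PTP4A3, PTP4A2 and PTP4A1 in the 8 libraries; bars are single libraries and lines are exact Poisson 95% intervals (for 0 counts, up to 3 counts). The 4 gilteritinib libraries of PTP4A3 sit between 42.2 and 87.8, all under the vehicle libraries at 124 to 155; the PTP4A1 axis ends below 1 CPM.

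Fitted in edgeR with drug and diet as terms, PTP4A3 was 65.5% lower with gilteritinib in marrow (log2 fold change −1.54, SE 0.114) and 47.6% lower in labelled liver (−0.93, SE 0.129). These are the values that chose the gene. The single-library ratios of gilteritinib over vehicle in marrow were 0.316 (95% counting interval 0.291 to 0.342) on ketogenic diet and 0.377 (0.351 to 0.404) on standard diet. In labelled liver they were 0.469 (0.439 to 0.502) on ketogenic and 0.585 (0.551 to 0.621) on standard diet. The marrow minus labelled liver difference of the drug effect was −0.61 on the log2 scale (SE 0.164), given as a description. Marrow over labelled liver had ratios of 0.726 on ketogenic and 0.666 on standard diet with gilteritinib, against 1.08 and 1.03 with vehicle.

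PTP4A3 was lower on ketogenic than on standard diet in 4 of 4 pairs of libraries, as were, by library totals, 12.1% of the 14749 genes. The ketogenic over standard ratio in marrow was 0.721 with gilteritinib (95% counting interval 0.655 to 0.794) and 0.860 with vehicle (0.819 to 0.903). In labelled liver it was 0.662 with gilteritinib (0.62 to 0.706) and 0.825 with vehicle (0.776 to 0.877). None of the 4 counting intervals reached 1. The diet effect did not pass the test in any fit, however. It was 26.3% lower in labelled liver (log2 −0.44, SE 0.128, edgeR adjusted p = 0.0545), 21.5% lower in marrow (−0.35, SE 0.113, adjusted p = 0.199) and 23.7% lower over all 8 libraries (−0.39, 95% interval −0.65 to −0.13, adjusted p = 0.399). Diet calls were rare in these fits, at 1.01% of genes in labelled liver, 0.492% in marrow and 0.136% over all 8 libraries. With genes under 50 counts left out, the labelled liver value passed the threshold (adjusted p = 0.05, just under it before rounding).

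In both tissues the diet ratio of PTP4A3 was further from 1 with gilteritinib than with vehicle. The test of that difference did not pass (drug by diet, log2 −0.30, 95% interval −0.80 to 0.21, edgeR adjusted p = 0.924), and in edgeR it called 0% of genes, with 706 at an unadjusted p under 0.05 and 0 genes in DESeq2 and limma-voom. The diet effect differed between marrow and labelled liver by 0.12 (95% interval −0.43 to 0.67, adjusted p = 1), a comparison that also called 0% of genes, with 450 at an unadjusted p under 0.05 and 0 in DESeq2 and limma-voom. With drug and diet combined, gilteritinib on ketogenic diet over vehicle on standard diet had a ratio of 0.272 in marrow (counting interval 0.252 to 0.293) and 0.387 in labelled liver (0.362 to 0.414). Averaged over drug and diet, PTP4A3 differed between marrow and labelled liver by −0.22 (SE 0.12, adjusted p = 0.445), in a comparison where edgeR called 0% of genes, with 2025 at an unadjusted p under 0.05, DESeq2 143 and limma-voom 3.

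**Figure D3:**
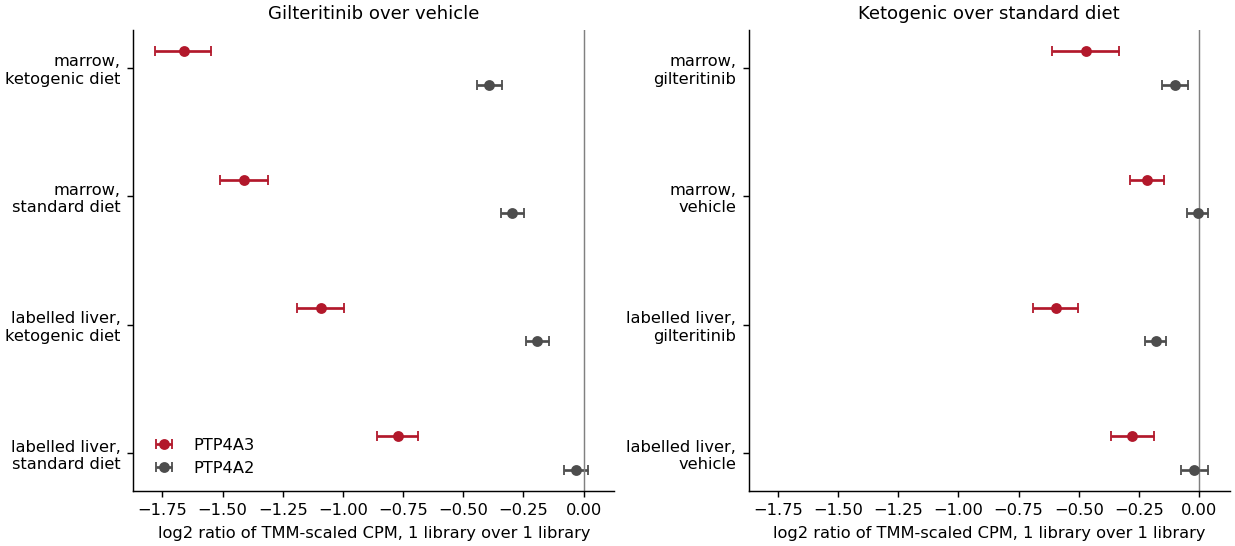
Log2 ratio of TMM-scaled CPM between single libraries for PTP4A3 (red) and PTP4A2 (grey), gilteritinib over vehicle (left) and ketogenic over standard diet (right); lines are 95% counting intervals. PTP4A3 lies left of PTP4A2 in all 8 rows, with drug ratios of 0.316 to 0.585 and diet ratios of 0.662 to 0.860.

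PTP4A2 had 298, 320, 391 and 393 TMM-scaled CPM in marrow with gilteritinib and ketogenic diet, gilteritinib and standard diet, vehicle and ketogenic diet, and vehicle and standard diet. In labelled liver the same groups had 301, 340, 343 and 348 CPM. Here too all 4 gilteritinib libraries lay under the vehicle libraries, but the highest of them, at 340 CPM, almost touched the lowest vehicle library at 343 CPM. By library totals, 9.16% of the 14749 genes showed this pattern. PTP4A2 was lower with gilteritinib in 4 of 4 pairs of libraries, as were, by library totals, 20.9% of genes. The largest gap in the order was a ratio of 1.12 (95% counting interval 1.08 to 1.17), between vehicle marrow on ketogenic diet and vehicle labelled liver on standard diet. The 3 labelled liver libraries other than gilteritinib with ketogenic diet did not differ from their neighbours among themselves beyond counting error.

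PTP4A2 fell with gilteritinib in marrow by 21.3% (log2 −0.35, SE 0.105, edgeR adjusted p = 0.0144), lower in both diet pairs. Of the 14029 genes tested there, 20.3% were called, 10.5% (1473) higher and 9.81% (1376) lower; scaled by library totals alone, where the median gene moves by −0.15, the split was 872 higher and 2767 lower. The call on PTP4A2 was lost in DESeq2 (adjusted p = 0.0607), with no count filter (0.0774) and without diet in the fit (0.0503). In labelled liver the estimate was 7.55% lower (−0.11, 95% interval −0.36 to 0.13, adjusted p = 0.863), where 2.27% of 14092 genes were called. Over all 8 libraries it was −0.23 (SE 0.0815, adjusted p = 0.113), against 4.92% of genes called. The tissue difference of the drug effect was −0.23 (95% interval −0.54 to 0.08, adjusted p = 0.465), in a comparison that called 3.04% of genes, so the marrow call does not show that the 2 tissues differ.

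Diet values of PTP4A2 were small. The ketogenic over standard ratios were 0.933 and 0.996 in marrow with gilteritinib and with vehicle, and 0.883 and 0.986 in labelled liver. The fitted values were −0.07 in marrow (edgeR adjusted p = 0.891), −0.10 in labelled liver (adjusted p = 0.837) and −0.08 over all 8 libraries (95% interval −0.25 to 0.10, adjusted p = 0.785). Marrow and labelled liver differed by 0.06 (95% interval −0.11 to 0.24, adjusted p = 0.774). The drug by diet term was −0.13 (adjusted p = 0.934) and the diet by tissue term 0.05 (adjusted p = 1).

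Both genes were well expressed. Mean level per kilobase of exon was 51.1 CPM for PTP4A2, above 93.8% of 11483 protein-coding genes tested, and 35.7 CPM for PTP4A3, above 91% of them. Per kilobase, PTP4A2 over PTP4A3 was 3.03 and 2.34 in gilteritinib marrow on ketogenic and standard diet, against 1.25 and 1.08 in vehicle marrow. In labelled liver it was 2.21 and 1.66 with gilteritinib and 1.19 and 0.993 with vehicle. The 2 phosphatase transcripts were therefore near parity per exon length in vehicle libraries, and PTP4A2 prevailed with gilteritinib. With the longest transcript in place of the union of exons, the same ratios ran between 1.65 and 5.02, so parity depends on the transcript length used. The order of the groups cannot change this way, since the lengths are the same in every library. The higher ratios with gilteritinib restate the drug values that chose PTP4A3.

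As a share of the counts of the 3 genes, PTP4A3 made up 12.4% and 15.5% in gilteritinib marrow on ketogenic and standard diet, against 25.5% and 28.3% in vehicle marrow. In labelled liver it made up 16.2% (Wilson 95% interval 15.5 to 17) and 20.5% (19.8 to 21.3) with gilteritinib, against 26.5% (25.5 to 27.5) and 30.1% (29 to 31.2) with vehicle. Shares were lower with gilteritinib in 4 of 4 pairs, which restates the drug values that chose PTP4A3 and adds no support to them. They were lower on ketogenic diet in 4 of 4 pairs, which follows from the diet ratios above. This share compares 2 rows of one library and does not depend on scaling. The PTP4A1 counts cannot be read as its level, so the share describes counted reads and not the whole family.

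**Figure D4:**
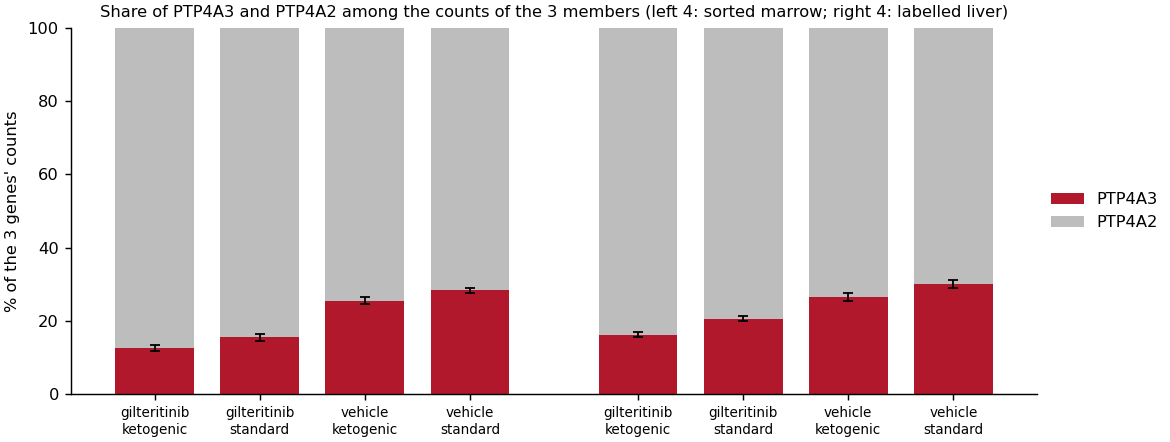
Share of PTP4A3 (red) and PTP4A2 (grey) in the summed counts of the 3 genes per library; lines are Wilson 95% intervals of the PTP4A3 share. PTP4A3 holds 12.4% to 20.5% in gilteritinib libraries and 25.5% to 30.1% in vehicle libraries. The PTP4A1 share, at most 0.0612%, is too small to see, and its counts cannot be read as its level.

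Of the 4 tested genes of the CNNM list (CNNM2, CNNM3, CNNM4 and ARL15, a small GTPase that binds CNNM proteins), 0 were called in any comparison, and CNNM1 had 0 counts in all 8 libraries. For the drug, 20.3% of all genes were called in marrow and 2.27% in labelled liver. The list median for the drug was −0.11 in marrow and 0.06 in labelled liver, against −0.00636 and −0.000666 over all genes. CNNM3, a CNNM protein known to bind PTP4A2, had 20.3 and 17.1 TMM-scaled CPM in gilteritinib marrow, against 19.6 and 18.8 CPM in vehicle marrow. Its drug effect was −0.04 in marrow (SE 0.147) and 0.15 in labelled liver (SE 0.168), and its diet effect 0.14 and −0.19. CNNM4, a magnesium exporter of epithelia, had 5.68 and 6.15 CPM in gilteritinib marrow and 6.22 and 7.18 CPM in vehicle marrow, with drug effects of −0.18 and 0.24 and diet effects of −0.18 and −0.14 in marrow and labelled liver.

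Of 15 magnesium transport genes, 11 were tested and 2 fell with gilteritinib in marrow. They were MAGT1, a magnesium transporter and oligosaccharyltransferase subunit (log2 −0.42, SE 0.127, edgeR adjusted p = 0.0132), and NIPA2, a plasma membrane magnesium transporter (−0.37, SE 0.11, adjusted p = 0.0135). The median of the 11 was −0.20 in marrow and −0.02 in labelled liver, where 0 were called. Among 8 enzymes of prenylation, which attach and process the lipid anchor, 2 fell in marrow. ZMPSTE24, a protease that trims prenylated proteins, fell by 0.44 on the log2 scale (SE 0.12, adjusted p = 0.00622), and ICMT, which methylates the trimmed end, fell by 0.36 (SE 0.112, adjusted p = 0.017). The median of the 8 was −0.13, with 0 called in labelled liver. At 2 of 11 and 2 of 8, these counts are near the 20.3% of all genes called in marrow. MAGT1, NIPA2, ICMT and ZMPSTE24 each lost the call in DESeq2, with no count filter and without diet in the fit.

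Of 16 reported partners and downstream proteins of PRL phosphatases, 13 were tested. With gilteritinib in marrow 2 fell and 2 rose, where 20.3% of all genes were called, and each of the 2 that rose lost its call in 1 or 2 of 10 other settings. STMN1, which destabilises microtubules, had 364 and 251 CPM of the library total in gilteritinib marrow, against 510 and 525 CPM in vehicle marrow (log2 −0.63, SE 0.118, edgeR adjusted p = 0.000118). ITGB1, the integrin beta chain, fell by 0.56 (SE 0.118, adjusted p = 0.000346). KRT8, an intermediate filament keratin, rose by 0.88 (SE 0.22, adjusted p = 0.0026) at 6.78 and 8.36 CPM of the library total, against 4.48 and 4.67 CPM with vehicle, a call lost in DESeq2. The other 9 were not called, and the median of the 13 was 0.04. In labelled liver 0 of the 13 were called.

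The list of reported regulators held 9 tested genes, of which 2 fell and 1 rose with gilteritinib in marrow, where 20.3% of all genes were called. EGR1, an immediate early transcription factor, had 9.12 and 6.02 TMM-scaled CPM in gilteritinib marrow on ketogenic and standard diet, against 48.1 and 34.9 CPM in vehicle marrow. In labelled liver it had 20.6 and 32.1 CPM with gilteritinib and 22.7 and 27.5 CPM with vehicle. EGR1 thus fell in marrow (log2 −2.46, SE 0.154, edgeR adjusted p = 8.03e-17) with groups well apart, while in labelled liver the groups overlapped (0.05, SE 0.152, adjusted p = 0.979). The difference between tissues was −2.49 (SE 0.385, adjusted p = 0.00792), a call lost without either vehicle library of labelled liver (adjusted p = 0.0617 without the ketogenic one and 0.0973 without the standard one). PTP4A3 was lower with gilteritinib under both labels, by the values that chose it, and a link to EGR1 was not tested. MEF2C, a myeloid transcription factor, fell by 0.30 in marrow (SE 0.108, adjusted p = 0.0441), a call lost in 6 of 10 other settings.

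STAT5A and STAT5B, the transcription factors that relay the FLT3-ITD signal, are controlled mainly by phosphorylation, which RNA does not show. STAT5A had 51.7 and 51.5 TMM-scaled CPM in gilteritinib marrow, against 36.3 and 35.4 CPM in vehicle marrow, and rose by 0.52 (SE 0.121, edgeR adjusted p = 0.00115). Its estimate in labelled liver was 0.11 (adjusted p = 0.904). STAT5B was not called, with estimates of 0.28 (SE 0.125, adjusted p = 0.107) in marrow and 0.18 (SE 0.147) in labelled liver. FLT3 itself had 478 and 595 CPM in gilteritinib marrow and 469 and 548 CPM in vehicle marrow (0.07, SE 0.107, −0.08 when scaled by library totals). In labelled liver it had 349 and 537 CPM with gilteritinib and 396 and 358 CPM with vehicle (0.20, SE 0.124). Diet effects of STAT5A, STAT5B, FLT3 and EGR1 were not called in either tissue and lay between −0.47 and 0.49.

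Among 19 tested genes of FLT3 and STAT5 output, 4 fell and 3 rose with gilteritinib in marrow, 2 rose and 1 fell in labelled liver, and the medians were 0.05 in both. EGR1 belongs to both this list and that of the reported regulators, and was among those that fell in marrow. Over all genes 20.3% were called in marrow and 2.27% in labelled liver. In marrow the negative feedback gene CISH fell by 0.54 (SE 0.12, edgeR adjusted p = 0.000652) and the survival kinase PIM1 by 0.43 (SE 0.105, adjusted p = 0.00216), while the ETS factor ETV5 rose by 0.58 (SE 0.125, adjusted p = 0.000502). In labelled liver the cytokine OSM rose by 1.64 (SE 0.147, adjusted p = 1.17e-25) and the feedback gene SOCS3 by 1.19 (SE 0.147, adjusted p = 5.77e-13), and SOCS1 fell by 0.58 (SE 0.171, adjusted p = 0.0391). Over all 8 libraries, where 4.92% of all genes were called, 3 of the 19 were: CISH (−0.44, SE 0.0853, adjusted p = 0.00905) and SOCS2 (−0.30, SE 0.0783, adjusted p = 0.0419) fell and ETV5 (0.48, SE 0.108, adjusted p = 0.0226) rose. The pooled CISH call was lost without either standard-diet marrow library (adjusted p up to 0.062). ETV5 lost its call without either vehicle marrow library, gilteritinib marrow on standard diet or gilteritinib labelled liver on ketogenic diet (up to 0.115), and with library totals (0.0563). SOCS2 kept its call only without 1 of the 2 standard-diet labelled liver libraries (otherwise up to 0.158), and lost it with upper quartile scaling (0.0577). The SOCS1 call was lost in 5 of 10 other settings, and those of OSM (in DESeq2) and PIM1 (without diet in the fit) in 1. For diet, BCL6, a transcriptional repressor, fell in labelled liver by 1.17 (SE 0.282, adjusted p = 0.00801), the only call for diet in any of the lists described here and one lost in 3 of 9 other settings.

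Of 6 phosphatases known to act on FLT3 signalling, 1 was called in marrow. PTPN2, a phosphatase of STAT and receptor proteins, rose by 0.31 (SE 0.113, edgeR adjusted p = 0.0436), a call lost in 6 of 10 other settings. Of 18 other small phosphatases of the dual-specificity class, 2 fell and 1 rose in marrow and 0 were called in labelled liver, against 20.3% and 2.27% of all genes called. CDKN3 (its call lost in DESeq2), which acts on cyclin-dependent kinases and is high in dividing cells, had 27.5 and 17.5 CPM of the library total in gilteritinib marrow, against 48.4 and 56.4 CPM in vehicle marrow (−1.09, SE 0.151, adjusted p = 1.25e-06). The catalytically inactive STYX fell by 0.43 (SE 0.133, adjusted p = 0.0151) and DUSP23 rose by 0.51 (SE 0.122, adjusted p = 0.00172). The STYX call was lost in 4 of 10 other settings. The medians were −0.08 for the 6 and 0.05 for the 18 in marrow.

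**Figure D5:**
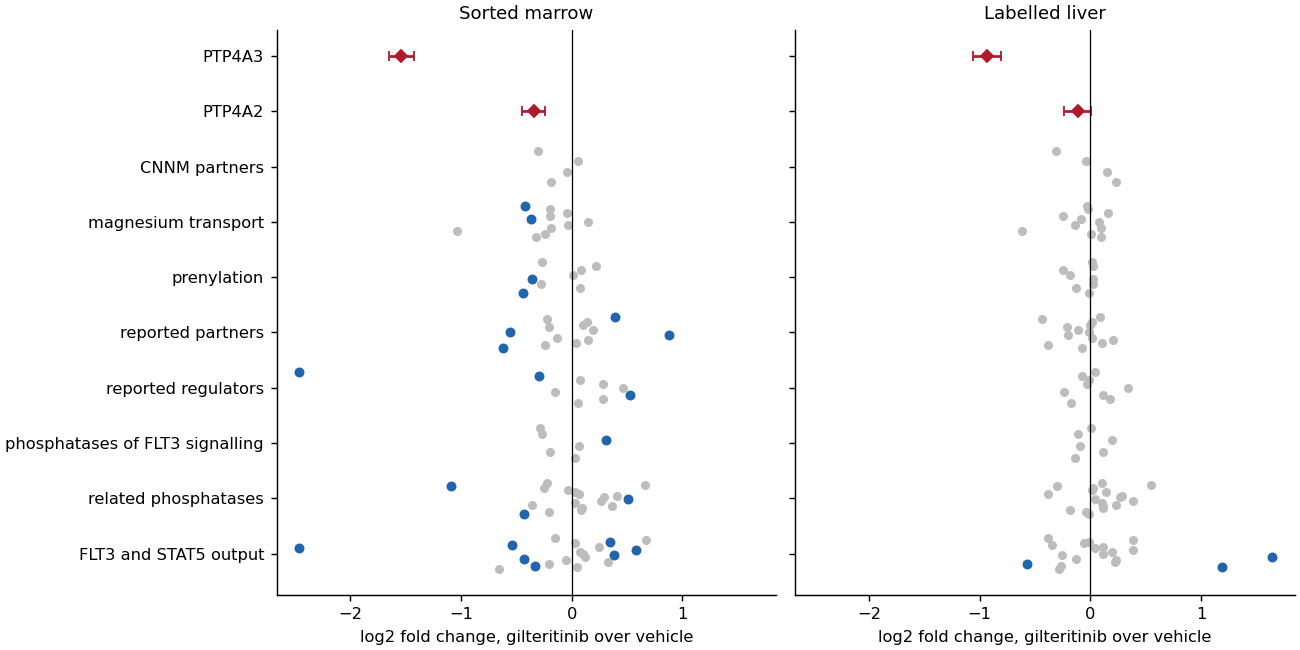
Log2 fold change of gilteritinib over vehicle in sorted marrow (left) and labelled liver (right) for PTP4A3 and PTP4A2 (diamonds, ± SE) and for the tested genes of each list (points, blue where the edgeR adjusted p is under 0.05, grey otherwise). PTP4A3 lies at −1.54 and −0.93; of the CNNM partners no point is blue in either panel.

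Of the 6 tested protein-coding genes nearest to PTP4A3 on chromosome 8, 2 rose and 1 fell with gilteritinib in marrow, where 20.3% of all genes were called. Those on one side were SLC45A4 at 83.7 kb, DENND3 at 196 kb and PTK2 at 390 kb. On the other were TSNARE1 at 780 kb, JRK at 1230 kb and THEM6 at 1290 kb. In marrow DENND3, an exchange factor for Rab GTPases, rose with gilteritinib by 0.43 (SE 0.111, edgeR adjusted p = 0.00325) and TSNARE1 by 0.54 (SE 0.164, adjusted p = 0.0139), and JRK fell by 0.55 (SE 0.173, adjusted p = 0.0178). In labelled liver 0 of the 6 were called. DENND3 and TSNARE1 were not called when scaled by library totals, nor TSNARE1 and JRK in DESeq2 or with no count filter. Beside PTP4A2, SERINC2 rose by 0.38 (SE 0.125, adjusted p = 0.0227) in marrow, a call lost in 4 of 10 other settings, and the other 5 neighbours were not called in either tissue. Of the 6 tested neighbours of PTP4A1, 1 rose and 2 fell in marrow and 0 were called in labelled liver. FKBP1C, 309 kb away, rose by 0.90 (SE 0.152, adjusted p = 1.21e-05), a row that may share reads with the similar gene FKBP1A. RAB23, a small GTPase whose gene lies 6300 kb away, fell by 0.73 (SE 0.178, edgeR adjusted p = 0.00202, lost in DESeq2). PRIM2, a DNA primase subunit whose gene lies 5870 kb away, fell by 0.52 (SE 0.124, edgeR adjusted p = 0.00161). PHF3, the closest at 52.4 kb, was not called in marrow (−0.30, SE 0.128, adjusted p = 0.0945) but passed there with library totals (−0.44, adjusted p = 0.0131). LMBRD1 (6090 kb away) and FAM135A (6830 kb away) were not called.

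Across the 8 libraries, the log2 CPM profiles most like that of PTP4A3 among 9308 protein-coding genes were ADAMTS14 (Pearson r = 0.984), TET2 (0.983), CDK13 (0.975), NUBPL (0.972) and APOL4 (0.971). ADAMTS14, a secreted procollagen protease, had 3.03 and 5.40 CPM of the library total in gilteritinib marrow, against 10.6 and 11 CPM in vehicle marrow. In labelled liver it had 4.59 and 6.83 CPM with gilteritinib, against 8.71 and 11.7 CPM with vehicle. On the same scale TET2, an oxidase of 5-methylcytosine, had 6.06 and 7.59 CPM against 10.6 and 11.8 CPM in marrow. APOL4 had 12.3 and 20.6 CPM against 31.7 and 35.5 CPM there. The marrow gaps of the other 2 were smaller. CDK13 had 31.1 and 33.7 CPM against 41.5 and 41.8 CPM, and NUBPL 5.05 and 5.66 CPM against 7.37 and 7.80 CPM. The PTP4A3 profile holds the drug values that chose it, so lower levels with gilteritinib among these genes follow from that choice. In all, 20 genes reached r = 0.95 with PTP4A3 and the median over all genes was 0.149. For PTP4A2 the closest were BAK1 (0.994), NPEPPS (0.990) and TWSG1 (0.985), with 38 genes at 0.95 or above. The 8 points share drug, diet, tissue label and scaling, so these values describe 8 libraries and no more.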

How the data were processed

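RNA was measured in 8 libraries, 1 per tissue label, drug and diet. The authors deposited raw gene counts of 60676 genes, as unnormalized whole numbers. Alignment used STAR 2.7.3a against GRCh38, per the submitters' processing notes. What counted the reads, over which annotation and strand, and what became of mouse reads is not given in the sources used here. Per the labels' protocols messenger RNA libraries were sequenced as paired ends.

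Genes with at least 10 counts in at least 2 libraries of a fit were tested with edgeR 4.0.16 in R 4.3.3 (TMM scaling, robust quasi-likelihood fit, two-sided), with Benjamini-Hochberg adjustment over all genes and a threshold of 0.05. Fits per tissue label had drug and diet as terms and 1 residual degree of freedom, so they lean on the spread shared across genes (median prior degrees of freedom 47.3 in marrow, infinite in labelled liver). Fits of all 8 libraries added tissue label and had 4 residual degrees of freedom. Nothing shows that libraries stand for separate animals, and no group has a spread between replicates. The residual of each fit is the departure from its terms, which within a tissue label is the drug by diet difference. The p-values rest on this departure, shared across genes, and do not measure spread between animals. Ratios of single libraries carry exact conditional 95% intervals, with 3 counts as the upper limit of a 0. Likeness used log2 CPM with a prior count of 2 and genes with a mean of at least 2. Models were tested on simulated counts.

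The members and gene lists were chosen with earlier results of these data known. Named genes were up to 4 called members per list and comparison, the largest by fold change, CNNM3, CNNM4, STAT5A, STAT5B, EGR1 and FLT3 always, the 3 nearest tested neighbours a side, and the 5 or 3 most similar profiles. ARL15 and CNNM2 stand beside these as the other tested genes of their list. Alternatives were limma-voom (limma 3.58.1), DESeq2 1.42.0, changed scalings, filters and designs, and each library left out. Positions came from GENCODE 29, promoter sequences from RefSeq. As an exception to the naming rule, the values of 1 called gene of the list of reported partners are not reported here.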

Additional observations from a re-analysis of the deposited data

Results flagged for a closer look

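The drug effect differed between marrow and labelled liver, by an interaction test in edgeR over all 8 libraries, for 5 of the genes named from the lists, in a comparison that called 3.04% of all genes. The difference, marrow minus labelled liver on the log2 scale, was −2.49 for EGR1 (adjusted p = 0.00792), −1.52 for OSM (adjusted p = 0.00444), −1.15 for SOCS3 (adjusted p = 0.000534) and −0.794 for CDKN3 (adjusted p = 0.048). MYC, a growth-promoting transcription factor of the FLT3 and STAT5 output list, had a positive difference of 0.64 (adjusted p = 0.0171), with drug effects of 0.39 in marrow (adjusted p = 0.0096, lost in 4 of 10 other settings) and −0.25 in labelled liver (adjusted p = 0.451). With each library left out in turn, OSM and SOCS3 passed in 8 of 8 fits, EGR1 in 6 of 8 (not without either vehicle library of labelled liver) MYC in 4 of 8 (not without either gilteritinib library of labelled liver or either standard-diet marrow library, adjusted p up to 0.202) and CDKN3 in 2 of 8 (only without 1 of the ketogenic marrow libraries, with an adjusted p of up to 0.388 otherwise). In 8 other settings the CDKN3 difference was lost in 6, DESeq2 (0.0562) and limma-voom (0.0592) among them, and the MYC difference in 1, library totals (0.0792). The tissue label coincides with a batch code, so the 2 cannot be told apart.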

How the results depend on the processing

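No paired analysis was possible because each group has 1 library and the labels carry no replicate numbers. Of 220 tested values of PTP4A2 and PTP4A3 recomputed under other settings, 210 kept direction and side of the threshold. Of 52 PTP4A3 drug values, which carry no test, 50 moved by less than their SE. The marrow drug call of PTP4A2 was lost in DESeq2 (−0.34, adjusted p = 0.0607), with no count filter (−0.35, 0.0774) and without diet in the fit (−0.35, 0.0503). Over all 8 libraries it passed with library totals (−0.32, adjusted p = 0.0494) and without labelled liver, vehicle, standard diet (adjusted p = 0.0406); with each library left out it ran between −0.29 and −0.19. The diet value of PTP4A3 in labelled liver passed with a minimum of 50 counts (−0.44, adjusted p = 0.05). Its drug value moved to −1.68 in marrow with library totals, and over all 8 libraries ran between −1.36 and −1.12 with a library left out. Its diet value there ran between −0.53 and −0.26 (adjusted p between 0.06 and 0.991). The diet by tissue term reversed with single libraries left out, running between −0.21 and 0.41 for PTP4A3 and between −0.0882 and 0.177 for PTP4A2. With library totals, estimates that were not called changed sign for FLT3 (−0.0775, marrow drug), PHF3 (−0.0253, labelled liver drug; in marrow it gained a call) and STAT5A (−0.0403, marrow diet). Causes were not tested. Leaving out a library within 1 tissue label leaves no residual degree of freedom and was not run.

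For the drug in marrow the number of genes called was 2849, against 1159 in DESeq2, 1215 with no filter and 1670 without diet. In labelled liver it was 320, against 155 with all 8 libraries and separate terms, 49 in DESeq2, 35 with no filter and 29 without diet. For diet it was 69 in marrow, with a range of 0 to 127, 143 in labelled liver, with 0 to 150, and 20 over all 8, with 4 to 115. Over all 8 libraries the drug called 725 genes, between 234 and 2039 with a library left out, and the drug by tissue term 448, between 189 and 836. With 1 library per group, a value from 1 animal or pool and a value of the group cannot be told apart.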
